A study of Mus musculus with 4 samples.

Results

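The library labelled MH was compared with the library labelled CxWT, a pair that differs in both labels. MH stands for the midbrain, diencephalon and hippocampus (M) of Ids-ko mice, whose genotype is given as Ids-/-, and CxWT for the cerebral cortex (Cx) of wild-type (wt) mice. Both came from C57BL/6 mice of 9 months, and each was a single sequencing library of RNA pooled from 7 mice, so that a difference between the libraries could not be set against a spread between animals. The other libraries of the study, CxH (cortex of Ids-ko mice) and MWT (the M area of wt mice), are given beside this pair where they help to place a value. Genotype and area cannot be told apart in this pair, since the labels change both at once. The pair was taken because Ids was nearly equal and high in both libraries and because the ratios of these libraries followed the GC content of the genes the least, and the genes entered with 50 or more reads in either library, which held for 12393 of the 12700 genes of the table.

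Ids encodes iduronate sulfatase, a lysosomal enzyme that removes sulfate from heparan sulfate and dermatan sulfate. Its loss causes mucopolysaccharidosis type II (Hunter syndrome), in which these glycosaminoglycans build up and the brain is affected. The cortex and the areas beneath it differ in their neurons. Excitatory neurons of the cortex are specified by factors such as Tbr1 and Fezf2 and load glutamate with the transporter Slc17a7, those of thalamus and midbrain mostly use Slc17a6, and the neurons that make dopamine, serotonin, hypocretin, oxytocin or vasopressin have their cell bodies in midbrain, hindbrain or hypothalamus.

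The summed reads on genes were 22057807 in MH and 20266394 in CxWT, against 23475080 in CxH and 16380080 in MWT, and these made up 56.6 to 61.0% of the aligned reads. A count of 3 reads, taken as the limit that a count of 0 allows, corresponded to 0.0803 reads for every 1000000 aligned reads (RPM) in MH and 0.0892 RPM in CxWT. Intervals and limits cover counting error only. Ids stood at 368 RPM in MH (95% exact binomial interval 362 to 374) and at 354 RPM in CxWT (347 to 360.1), but at 135 RPM in CxH (132 to 139) and 155 RPM in MWT (151 to 159.9). The library labelled as Ids-ko in this pair thus held as much Ids as the wt library, and the wt library of the M area held less than either. The counts are per gene, so reads over any deleted stretch of Ids were not separated from the rest. Because Ids goes against the label of MH, each direction below is that of the library labelled MH and not of a genotype.

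The tissue labels were checked in the same way. Tbr1, a factor of deep-layer cortical neurons, was at 64.2 RPM in MH and 8.36 RPM in CxWT, and at 78.3 RPM in CxH and 6.36 RPM in MWT. Slc6a3, the dopamine transporter of midbrain neurons, was at 0.509 RPM in MH and 56.4 RPM in CxWT, and at 0.416 RPM in CxH and 49.8 RPM in MWT. The library labelled CxWT, a cortex, therefore held little of the cortical marker and much of the midbrain marker, the library labelled MH the reverse, and both markers go against the area labels of these libraries. Libraries labelled MH and CxH were alike in both markers, as were CxWT and MWT. For this reason the pair CxH against MWT, which shares no library with MH against CxWT, is given beside it for some genes and lists. The study's methods divide each brain into both areas, so by the labels MH and CxH came from the same Ids-ko mice and CxWT and MWT from the same wt mice, and the second pair is not a set of other animals. What gave this order was not tested.

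A gene was called when its log2 ratio, MH over CxWT after scaling to the aligned reads, was 0.7 or more in size and a likelihood ratio test of equal Poisson rates passed 0.05. These are thresholds the study used. The test compares 2 libraries and not 2 conditions, and the standard errors of log2 ratios given below come from counting alone. Of the 12393 genes tested, 783 were called higher in MH (6.32%) and 1089 lower (8.79%). Among them 0 reached the log2 threshold without passing the test, so the calls followed the ratio alone. The median log2 ratio of all tested genes was -0.11, and 9240 genes (74.6%) lay within 0.5 of 0. Centring the ratios by TMM factors (weighted means of gene ratios that set the typical gene to no change) moved that median to 0.00 and turned the split from 41.8% of calls higher to 54.3% higher, so the balance of higher and lower calls depended on the scaling. The lower calls reached further. A log2 ratio of 3 or more was found for 16 genes called higher, against 60 called lower by at least as much, and a ratio of 4 or more for 4 genes against 32. Of the tested genes 148 had 50 reads in MH alone and 175 in CxWT alone, a filter that favours differences. They made up 88 and 140 of the calls. Genes just inside the limit of 50 reads (50 to 59 in the higher library, 117 genes) had a median size of the log2 ratio of 0.43, and those just outside (40 to 49 reads, 84 genes) had 0.40.

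**Figure D1:**
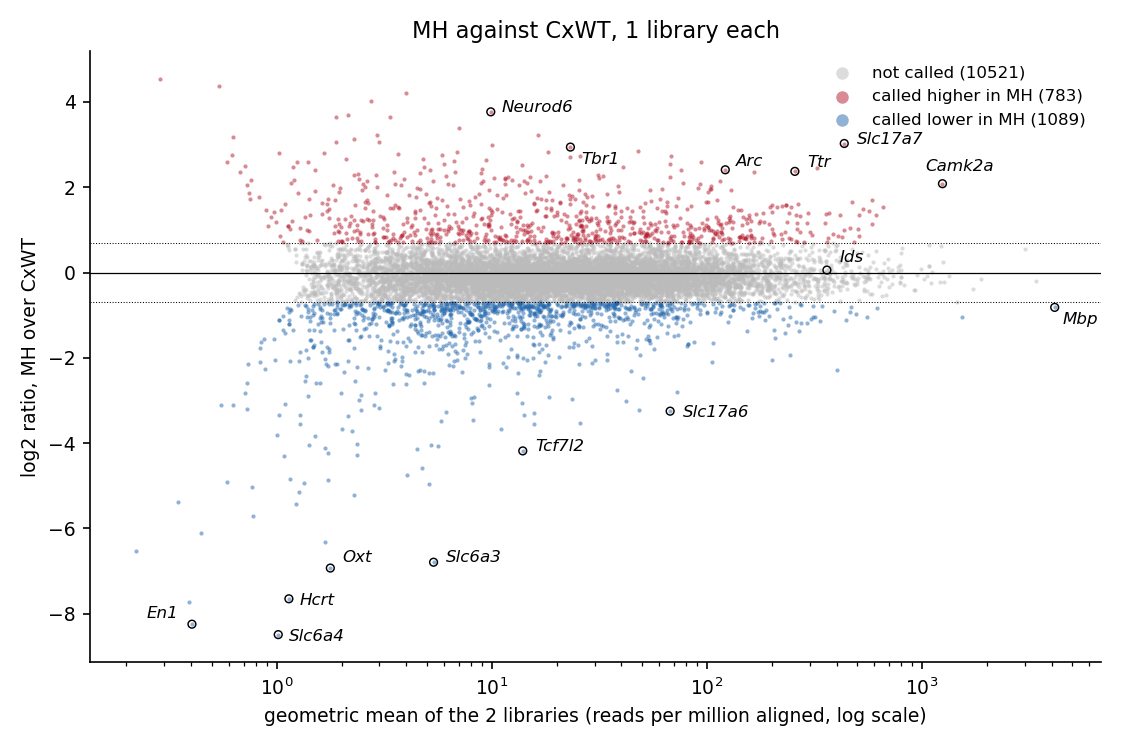
Log2 ratio of MH over CxWT (vertical) against the geometric mean of both libraries in RPM (horizontal, log scale), 1 point per tested gene. Red points are the 783 genes called higher in MH and blue points the 1089 called lower. Dotted lines mark log2 ratios of 0.7 and -0.7. Slc6a4, En1, Foxb1, Hcrt, Oxt and Slc6a3 lie lowest (En1, with 0 reads in MH, is drawn with 1 read), Neurod6 near the top, and Ids at 0.06.

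Genes of cortical projection neurons were among those highest in MH. Neurod6 lies on chromosome 6 from 55627812 to 55631257 (mm9). It was at 36.5 RPM in MH (1362 reads) and 2.68 RPM in CxWT (90 reads), and at 29.2 RPM in CxH and 2.42 RPM in MWT, so that MH and CxH lay above both other libraries. Neurod6 and Neurod2, basic helix-loop-helix factors of excitatory forebrain neurons, were higher by 3.77 ± 0.16 and 3.23 ± 0.11 on the log2 scale. Fezf2, which specifies neurons projecting to brainstem and spinal cord, was higher by 3.38 ± 0.18.

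Among abundant genes, Slc17a7, which fills synaptic vesicles with glutamate in cortical neurons, was at 1240 RPM in MH against 152 RPM in CxWT, and at 1359 RPM in CxH against 108 RPM in MWT. Its log2 ratio was 3.03 ± 0.02 in this pair. Camk2a, the alpha subunit of the calcium and calmodulin dependent kinase of excitatory synapses, had 2559 RPM in MH and 604 RPM in CxWT, a ratio of 2.08 ± 0.01. Nrgn, a calmodulin-binding protein of dendritic spines, was higher by 2.35 ± 0.03. In these genes both MH and CxH lay above both CxWT and MWT.

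Of 30 listed genes of cortical projection neurons, 29 were tested, and 23 were called higher and 0 lower, with a median log2 ratio of 1.78 against -0.11 for all tested genes. An exact test in edgeR that assumed a coefficient of variation of 0.2 between libraries called 18 of them higher, and 2 of the 29 had 50 reads in MH alone. In CxH against MWT the same 29 genes had a median of 2.17. Cux1, Rorb and Tle4, which mark particular cortical layers, were not called, with log2 ratios of -0.17, -0.07 and 0.15. The 21 tested layer markers were mixed, with 6 called higher and 3 lower and a median of 0.15, where 6.32% and 8.79% of all tested genes were called higher and lower. Foxp2, a layer marker that the thalamus also expresses, was called lower at -1.17 ± 0.08, as was Nxph4 at -2.35 ± 0.17. Of 18 tested hippocampal markers 3 were called higher (6 with TMM factors) and 1 lower, with a median of 0.35, and the 1 lower call is no larger a share than that of all tested genes. Calb2 was the lower gene, at -2.76 ± 0.07, and Prox1, a factor of dentate granule cells, was not called at -0.61 ± 0.09. Hippocampus is part of the area that the label of MH names and not of that which the label of CxWT names.

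Other genes at the top of the ranking were Ntn5, a netrin, with a log2 ratio of 4.01 ± 0.31, Dkkl1 (3.65 ± 0.26), Serpinb8 (3.64 ± 0.35), the hexokinase-like gene Hkdc1 (3.23 ± 0.27), the lipoxygenase Alox12b (3.13 ± 0.30), Mei1 (3.05 ± 0.32) and Psrc1 (3.05 ± 0.26). These genes lay between 0.535 and 1.04 RPM in CxWT and between 5.43 and 11.9 RPM in MH, and all 7 had 50 reads in MH alone, so that they entered through the library in which they were high. Vipr1, a receptor for vasoactive intestinal peptide, was better covered, at 28.2 RPM in MH and 3.54 RPM in CxWT (2.99 ± 0.14). Each of these genes was also called higher in CxH against MWT.

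Genes of striatal medium spiny neurons, the output neurons of the striatum, were mostly higher in MH as well. Of 30 listed, 28 were tested, 17 were called higher and 1 lower, and the median log2 ratio was 0.88. Of all tested genes 6.32% were called higher and 8.79% lower, and 1 of the 28 had 50 reads in MH alone. In CxH against MWT 22 of the 28 were called higher and 2 lower, with a median of 1.28. The shares of all tested genes there were 15.6% and 15%. Ppp1r1b (DARPP-32), the phosphatase inhibitor on which dopamine and adenosine signals converge, was at 239 RPM in MH and 87.2 RPM in CxWT, a ratio of 1.46 ± 0.03. The adenosine receptor Adora2a was higher by 1.21 ± 0.07 and the dopamine receptor Drd1 by 1.16 ± 0.06. The dopamine receptor Drd2 was not called, with 19.2 RPM in MH, 18.4 RPM in CxWT and a ratio of 0.06 ± 0.08. In CxH against MWT Drd2 was called higher (0.91). Isl1 was called lower at -1.22 ± 0.19. With a coefficient of variation of 0.2 assumed, 7 of the 28 remained called higher. The striatum is named in neither label, but the study's methods count it with the diencephalon in the M area, the area that the label of MH names. In bulk RNA, more cells of a type and more RNA per cell cannot be told apart, here or below.

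Immediate early genes, which neurons transcribe within minutes of being stimulated, formed the other large group on the higher side. Their promoters carry cAMP response elements (CRE), bound by CREB, and CArG boxes, bound by serum response factor. All 30 listed genes were tested. Of these 20 were called higher and 0 lower, 1 (Egr2) had 50 reads in MH alone, and the median log2 ratio was 1.25, against 1.45 in CxH against MWT. Of all tested genes 6.32% were called higher and 8.79% lower in this pair. Windows of the RefSeq promoter set (GRCm38.p6, 250 bases before to 50 after each start) were at hand for 16 of the 20. The CRE core (TGACG, or CGTCA on the other strand) was in a window of 12 of the 16 genes (75%) and in 23% of all 27025 genes with a window. Of all 24 immediate early genes with a window, called or not, 18 held the core (75%). Some genes have several windows (Bdnf 7 and Egr2 5), which favours a match per gene. Counted per window, the core was in 14 of the 27 windows of the 16 genes (51.9%) and in 20.8% of all 32851 windows. Egr2 windows from 67537619, 67537620 and 67537680 largely overlap and hold the same cores, which were counted in each. The whole CRE (TGACGTCA) was in 1 of the 16, 3 of the 24 and 2.03% of all genes, and the CArG box in 1 of the 16, 1 of the 24 and 1.81% of all genes. The median GC content of the windows was 63.3% for the 16 genes and 52.7% for all genes, and its part in the share with a CRE core, which holds a CG, was not tested. A match is a run of letters and not a shown binding site.

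The promoter windows below belong to Egr2, which holds a CArG box between CRE cores, to Arl4d, with the only whole CRE among the 16, and to Nr4a1 and Npas4, with 4 and 2 CRE cores. They are given 5′ to 3′ on the gene's strand, with every CRE, CRE core and CArG box in capitals, at chr10:67537619-67537918 (plus strand), chr11:101665291-101665590 (plus), chr15:101266596-101266895 (plus) and chr19:4989922-4990221 (minus) of GRCm38.p6.
Egr2: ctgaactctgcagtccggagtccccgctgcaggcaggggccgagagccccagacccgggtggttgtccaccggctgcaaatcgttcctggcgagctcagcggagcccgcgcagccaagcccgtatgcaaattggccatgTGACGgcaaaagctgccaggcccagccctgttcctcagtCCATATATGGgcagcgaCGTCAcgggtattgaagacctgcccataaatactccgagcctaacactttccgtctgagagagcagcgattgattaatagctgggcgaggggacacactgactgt
Arl4d: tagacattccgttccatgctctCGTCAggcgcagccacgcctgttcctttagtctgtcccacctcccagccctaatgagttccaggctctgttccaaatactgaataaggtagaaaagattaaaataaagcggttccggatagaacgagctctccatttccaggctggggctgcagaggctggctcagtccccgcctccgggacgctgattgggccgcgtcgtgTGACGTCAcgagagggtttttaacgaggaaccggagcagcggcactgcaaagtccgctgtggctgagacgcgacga
Nr4a1: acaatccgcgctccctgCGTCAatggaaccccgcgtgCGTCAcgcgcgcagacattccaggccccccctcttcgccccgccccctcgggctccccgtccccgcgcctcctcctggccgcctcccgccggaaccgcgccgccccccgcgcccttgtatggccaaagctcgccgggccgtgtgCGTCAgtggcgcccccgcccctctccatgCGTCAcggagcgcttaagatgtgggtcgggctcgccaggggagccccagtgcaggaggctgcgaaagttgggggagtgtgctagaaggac
Npas4: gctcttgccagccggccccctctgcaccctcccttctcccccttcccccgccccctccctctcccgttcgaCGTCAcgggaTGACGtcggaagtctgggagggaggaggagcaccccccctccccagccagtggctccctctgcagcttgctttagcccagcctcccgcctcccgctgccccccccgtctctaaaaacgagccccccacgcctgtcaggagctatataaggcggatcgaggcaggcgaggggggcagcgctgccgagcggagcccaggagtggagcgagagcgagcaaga

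Egr2 had 356 reads in MH and 47 in CxWT, with 332 in CxH and 30 in MWT, a log2 ratio of 2.77 ± 0.22. Egr2 is a zinc finger factor, and the other members of its family, Egr3 (2.82 ± 0.10), Egr4 (2.16 ± 0.11) and Egr1 (1.97 ± 0.04), were called higher with it. Arc, whose protein acts on the removal of glutamate receptors from synapses, was at 280.2 RPM in MH, 52.8 RPM in CxWT, 385 RPM in CxH and 35.5 RPM in MWT (2.41 ± 0.04). The orphan nuclear receptors Nr4a1, Nr4a2 and Nr4a3 were higher by 1.95 ± 0.05, 1.46 ± 0.09 and 2.07 ± 0.16. Npas4, a factor induced by calcium entry, was higher by 1.45 ± 0.10 and Arl4d, a small GTPase, by 0.91 ± 0.12. The AP-1 genes were uneven in this pair. Junb (1.70 ± 0.09), Fosb (1.27 ± 0.12) and Fosl2 (1.24 ± 0.07) were called, whereas Fos was at 18.7 RPM in MH and 15.5 RPM in CxWT (0.27 ± 0.08), Jun at 0.40 ± 0.06 and Jund at -0.12 ± 0.04. In CxH against MWT Fos (1.05), Jun (1.19) and Jund (1.22) were called higher, as were Junb, Fosb and Fosl2. Ptgs2, the inducible cyclooxygenase, had a ratio of 2.55 ± 0.17 in this pair and of 0.68 in CxH against MWT, where it was not called. Egr3 and Ier5 (1.78 ± 0.08) are members of both this list and that of cortical projection neurons. The cortical list moved with the immediate early genes in every library, and its part in their difference was not tested.

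**Figure D2:**
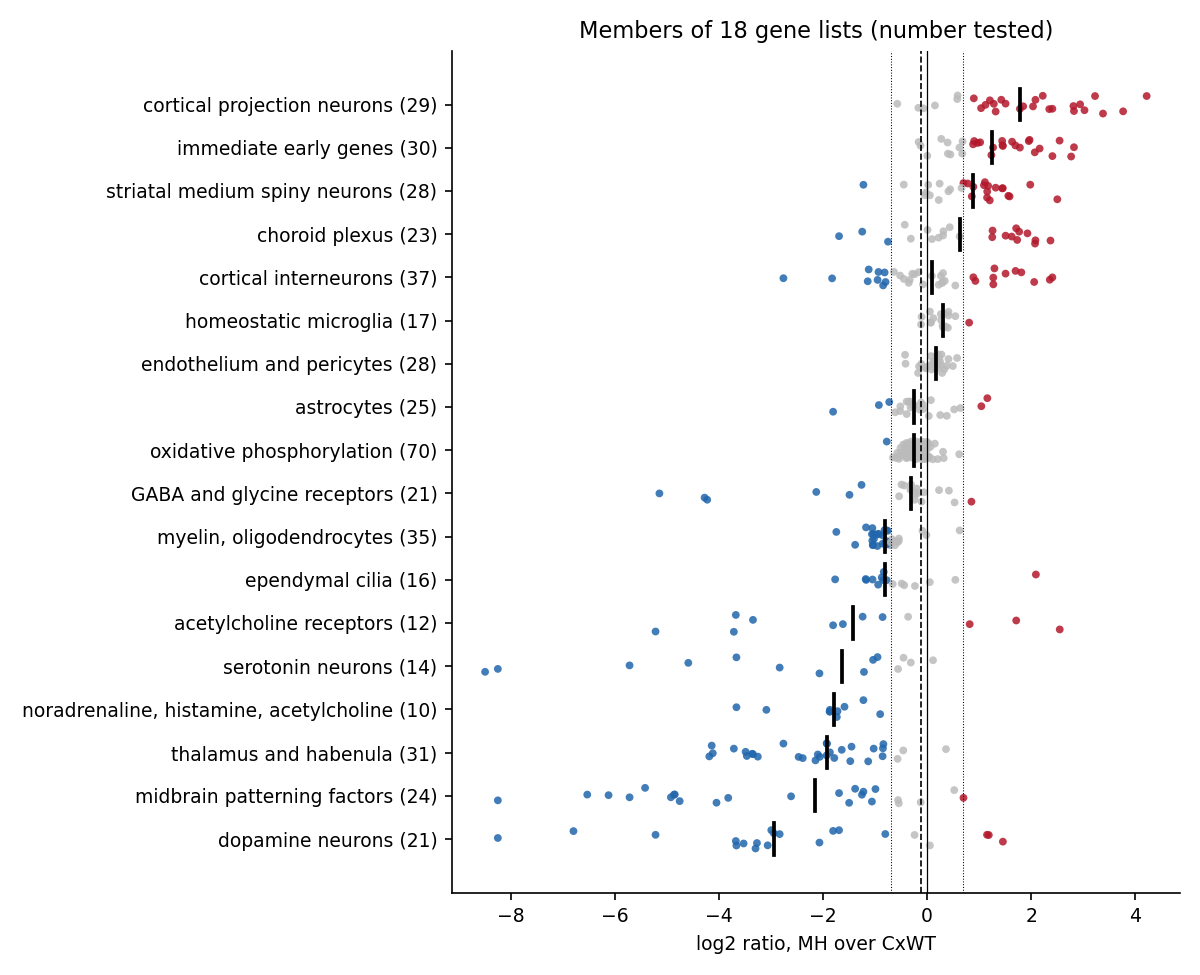
Log2 ratio of MH over CxWT for each tested member of 18 gene lists, 1 point per gene, with the number tested in brackets. Red points were called higher, blue lower and grey neither, and black bars are the list medians. The dashed line is the median of all tested genes (-0.11) and dotted lines mark 0.7 and -0.7. Cortical projection neurons (median 1.78) and dopamine neurons (-2.94) lie at opposite ends.

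Lower in MH were the genes of thalamus and habenula. Of 34 listed, 31 were tested, 0 were called higher and 28 lower, with a median log2 ratio of -1.93, and 5 of the 31 had 50 reads in CxWT alone. The shares of all tested genes were 6.32% higher and 8.79% lower. Slc17a6, the vesicular glutamate transporter of subcortical neurons, was at 21.8 RPM in MH, 208 RPM in CxWT, 10.5 RPM in CxH and 205 RPM in MWT, and its ratio was -3.25 ± 0.05. It thus went opposite to Slc17a7. Tcf7l2, a Wnt effector that marks thalamic neurons, was at 3.27 RPM in MH and 59.3 RPM in CxWT (-4.18 ± 0.13). Shox2 and Gbx2, homeobox factors of the thalamus, were lower by similar amounts (-4.14 ± 0.24 and -4.12 ± 0.38), and Prkcd, a kinase of thalamic relay neurons, had a ratio of -2.47 ± 0.06. Adarb1, the adenosine deaminase that edits glutamate receptor transcripts, had the most reads of the list, 8464 in MH and 16668 in CxWT (-1.13 ± 0.02).

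Genes of monoamine neurons and hypothalamic peptides were among those with the lowest ratios, as was Foxb1, a factor given with the developmental genes. Slc6a4, the serotonin transporter, on chromosome 11 from 76812105 to 76845842 (mm9), had 2 reads in MH and 647 in CxWT, with 3 in CxH and 446 in MWT, and CxWT was higher than MH 359.5-fold with an exact counting interval of 99.1 to 2975. The homeobox gene En1, needed by midbrain dopamine and hindbrain serotonin neurons, had 0 reads in MH and 273 in CxWT, which makes CxWT at least 101-fold higher with the count of 0 set to 3 reads. Slc6a3 had 19 reads in MH and 1895 in CxWT (-6.79 ± 0.33). These genes had 3, 1 and 16 reads in CxH and 446, 126 and 1440 in MWT.

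For dopamine neurons 21 genes were tested, of which 16 were called lower and 3 higher, and the median was -2.94. Each list of neurons here is read against the 8.79% of all tested genes called lower and 6.32% called higher. Th, which makes the precursor of dopamine, was at 4.76 RPM in MH and 39.8 RPM in CxWT (-3.06 ± 0.12). Slc18a2, which loads monoamines into vesicles, had a ratio of -3.66 ± 0.14, the decarboxylase Ddc one of -2.83 ± 0.11, and Ret, the signalling receptor of the GDNF family, one of -3.29 ± 0.11. Lpl (1.19 ± 0.14) and Nr4a2 (1.46 ± 0.09), which cortical cells also express, were among the 3 called higher. Of 14 tested genes of serotonin neurons 10 were called lower and 0 higher. Tph2, the enzyme that starts serotonin synthesis in neurons, had 36 reads in MH and 778 in CxWT (-4.59 ± 0.25). All 10 tested genes of noradrenaline, histamine and acetylcholine neurons were called lower, among them Dbh (-3.09 ± 0.41), Hdc (-1.86 ± 0.18) and Chat (-1.73 ± 0.16), which make noradrenaline, histamine and acetylcholine. The lists of dopamine and serotonin neurons each held 6 members with 50 reads in CxWT alone, and the last list 2.

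Peptide genes divided. Hcrt, the precursor of hypocretin, had 3 reads in MH and 542 in CxWT, a ratio of 200.8-fold in favour of CxWT with a counting interval of 68.3 to 977. Oxt had 6 reads in MH and 658 in CxWT (-6.93 ± 0.59), and Avp 7 and 503 (-6.32 ± 0.55). These encode the hormones of the posterior pituitary, oxytocin and vasopressin. Cartpt (-2.91 ± 0.10) and Trh (-2.21 ± 0.12) were lower as well. Of the peptides that cortical interneurons also make, Vip (2.06 ± 0.11), Npy (1.81 ± 0.08) and Cck (1.51 ± 0.05) were called higher, while Sst (0.54 ± 0.05), Crh (-0.08 ± 0.27) and Tac1 (-0.45 ± 0.08) were not called. Of the 22 tested peptide genes 6 were called higher and 10 lower, with a median of -0.28, and 5 of the 10 (Hcrt, Oxt, Avp, Gal and Pomc) had 50 reads in CxWT alone. The shares of all tested genes were 6.32% higher and 8.79% lower.

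Developmental factors that keep being transcribed in subcortical neurons followed. Of 46 listed midbrain patterning genes 24 were tested, 19 were called lower and 1 higher, and 11 had 50 reads in CxWT alone. Both lists here are read against the 8.79% of all tested genes called lower and 6.32% called higher. Gata3 had 4 reads in MH and 189 in CxWT, Pax7 2 and 125, and Lhx5 7 and 269. For Pax7 the ratio was 69.5-fold in favour of CxWT with a counting interval of 18.8 to 580. Of 23 hypothalamic factors 12 were called lower and 1 higher, with a median of -1.06, and 9 had 50 reads in CxWT alone. In CxH against MWT 8 of the 23 were called lower and 5 higher, with a median of -0.02. The shares of all tested genes there were 15% and 15.6%. Foxb1, a factor of the mammillary region, had 1 read in MH and 190 in CxWT. The Dlx genes of this list, which the striatum and cortical interneurons share, were not called (Dlx1 0.22, Dlx2 0.29, Dlx5 0.30 and Dlx6 0.34). Among the remaining genes at the bottom were Calcr, the calcitonin receptor (9 reads in MH and 248 in CxWT), Irs4, an insulin receptor substrate of the hypothalamus (34 and 958), and the orphan receptor gene Pgr15l (5 and 148).

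**Figure D3:**
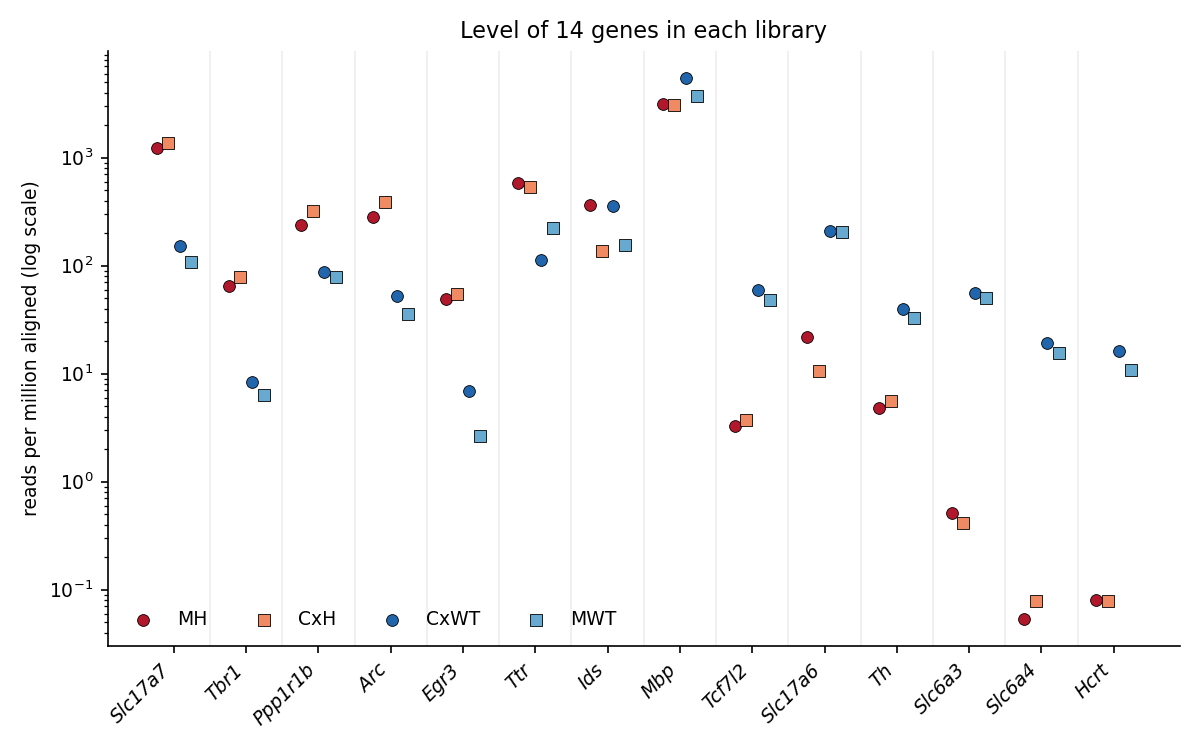
Level of 14 genes in the 4 libraries in RPM (log scale), 1 point per library. Circles are MH (red) and CxWT (blue), squares CxH (orange) and MWT (light blue). For Slc17a7, Tbr1, Ppp1r1b, Arc, Egr3 and Ttr the libraries MH and CxH lie above CxWT and MWT, for Mbp, Tcf7l2, Slc17a6, Th, Slc6a3, Slc6a4 and Hcrt below, and for Ids MH and CxWT lie together above the others.

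Receptors and channels are read against the 6.32% of all tested genes called higher and 8.79% called lower. Of 12 acetylcholine receptor genes 8 were called lower and 3 higher, and 5 of the 8 (Chrna3, Chrna6, Chrnb3, Chrnb4 and Chrm5) had 50 reads in CxWT alone. The lower ones were 6 of 7 nicotinic subunits and the muscarinic Chrm2 and Chrm5, led by Chrna6 of dopamine neurons (14 reads in MH and 468 in CxWT, -5.22 ± 0.39) and Chrna3 of habenular neurons (-3.71 ± 0.31). The other nicotinic subunit, Chrna7, was not called at -0.36 ± 0.12. The higher ones were the forebrain muscarinic receptors Chrm1 (2.55 ± 0.05), Chrm4 (1.71 ± 0.08) and Chrm3 (0.82 ± 0.07). Of 21 GABA and glycine receptor subunits 6 were called lower, 1 higher and 14 neither, and 3 had 50 reads in CxWT alone. The glycine receptor subunits Glra1, Glra2 and Glra3 were all called lower. Glra1, Gabrq and Gabre had 8, 20 and 15 reads in MH and 254, 348 and 252 in CxWT, and Gabrd was the higher member (0.85 ± 0.06). Of the NMDA receptor subunits, Grin2a (1.40 ± 0.07) and Grin2b (1.07 ± 0.06) were called higher, and Grin2d (-1.69 ± 0.09) and Grin3a (-0.80 ± 0.08) lower, the last not with TMM factors (-0.69). In CxH against MWT Grin2d was not called (-0.58), while Grin2a, Grin2b and Grin3a had the same calls as here. The serotonin receptor Htr2c (-1.47 ± 0.04) was lower, while Htr3a of interneurons was higher (1.70 ± 0.23) and had 50 reads in MH alone (49 in CxWT).

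Of 59 potassium channel genes 13 were called higher and 8 lower, with a median of 0.18. Each group in this paragraph is read against the same shares of all tested genes, 6.32% higher and 8.79% lower. Kcnh3, a forebrain member of the ether-a-go-go family, was at 176 RPM in MH and 26.4 RPM in CxWT (2.74 ± 0.05), and the modulatory subunit Kcnv1 was higher by 2.71 ± 0.09. Kcnj5, a channel opened by G proteins, was lower at -2.84 ± 0.25 and had 50 reads in CxWT alone (40 in MH), and Kcnj10 of astrocytes at -1.19 ± 0.02. Of 21 calcium channel genes 7 were called higher and 2 lower, the lower calls being near the share of all tested genes. Itpr1, the channel that releases calcium from stores, had 17794 reads in MH and 6074 in CxWT (1.40 ± 0.02), and the accessory subunit Cacna2d2 went the other way (-1.49 ± 0.04). Of 36 genes of synaptic vesicle release 8 were called higher and 5 lower. The membrane proteins of the fusion complex split, with Stx1a at 159.5 RPM in MH and 37.3 RPM in CxWT, called higher, and Vamp1 at 124 RPM and 476 RPM, called lower. Of the AMPA and kainate group 6 of 21 were called higher and 3 lower, and of 37 cortical interneuron genes 11 and 9, Pvalb (-0.80 ± 0.06) and Gad2 (-1.12 ± 0.03) being lower. The call of Pvalb ended with TMM factors (-0.69). With a coefficient of variation of 0.2 assumed, the higher and lower calls became 7 and 3 for potassium channels, 3 and 1 for calcium channels, 3 and 2 for vesicle release, 1 and 1 for the AMPA and kainate group, and 7 and 2 for the interneuron genes.

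The myelin genes were lower as a group by about the size of the threshold. All 35 were tested. Of these 24 were called lower and 0 higher, and the median was -0.80, against -0.66 in CxH against MWT. The shares of all tested genes in this pair were 8.79% lower and 6.32% higher. In CxH against MWT 14 of the 35 were called lower and 0 higher, where 15% and 15.6% of all were. Mbp, the myelin basic protein, was at 3115 RPM in MH, 5487 RPM in CxWT, 3077 RPM in CxH and 3746 RPM in MWT, with a ratio of -0.82 ± 0.01. Mobp, another protein of compact myelin, was at -0.92 ± 0.02 and Mag, which faces the axon, at -1.02 ± 0.03. Mag was called here and not in CxH against MWT, where its ratio was -0.18. Sox10, a factor of the whole lineage, was not called at -0.62 ± 0.06, and Enpp2, which the choroid plexus shares, lay above 0 at 0.63 ± 0.02. Of 16 genes of oligodendrocyte precursors 5 were called lower and 0 higher, with a median of -0.18, and 1 was lower with a coefficient of variation of 0.2 assumed. The myelin calls were close to the threshold, and with a coefficient of variation of 0.2 assumed 2 of the 35 genes were called lower.

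Other glia and vessels are likewise read against 6.32% of all tested genes called higher and 8.79% lower. Of 25 astrocyte genes 2 were called higher and 3 lower, and the median was -0.25. Among 12 genes of subcortical astrocytes 8 were called lower and 0 higher, with a median of -1.10. These included Agt, the precursor of angiotensin, at 14.7 RPM in MH and 119 RPM in CxWT (-3.02 ± 0.07), and the GABA transporter Slc6a11 (-2.05 ± 0.03). Of 17 genes of homeostatic microglia 16 were not called and Mertk, a receptor for the uptake of dying cells, was called higher (0.81 ± 0.07). Of 28 genes of endothelium and pericytes and of 15 of meningeal fibroblasts 0 were called in either direction, with medians of 0.17 and 0.05. Of 70 tested genes of oxidative phosphorylation 69 were not called and Ndufb6 was called lower (-0.77 ± 0.05), a call that ended with TMM factors, where its ratio was -0.67. Of 17 lysosomal enzymes of glycosaminoglycan breakdown 16 were not called, with a median of -0.18. Ids is counted among the 16, and its near equality was part of the choice of the pair. Arsg, a heparan sulfatase, was called lower at -0.81 ± 0.06. Idua, the enzyme that acts after Ids on the same chain end, had a ratio of -0.35 ± 0.08.

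The choroid plexus, which makes cerebrospinal fluid, gave a group with larger ratios in this pair than in CxH against MWT. Of 23 tested genes 11 were called higher in MH and 3 lower, where 6.32% and 8.79% of all tested genes were, and 4 had 50 reads in MH alone. In CxH against MWT 5 of the 23 were called higher and 2 lower, where 15.6% and 15% of all were. The list medians were 0.63 and 0.25, and none of its genes was called in opposite directions. Ttr, the carrier of thyroid hormone and the most abundant of them, was at 583 RPM in MH, 113 RPM in CxWT, 537 RPM in CxH and 221 RPM in MWT. Kcne2 was at 5.67 RPM in MH and 1.99 RPM in CxWT (1.51 ± 0.20), but at 2.91 RPM in CxH and 4.66 RPM in MWT. The coagulation factor F5 was at 8.22, 2.41, 5.04 and 5.11 RPM in MH, CxWT, CxH and MWT. For these 3 genes CxWT was the lowest library. For Ttr CxH lay above MWT, as MH lay above CxWT, whereas for Kcne2 and F5 CxH did not lie above MWT. Otx2 (-1.69 ± 0.16), which midbrain cells express too, Prlr (-1.24 ± 0.09) and Kcne1l (-0.75 ± 0.12) were called lower, Kcne1l not with TMM factors (-0.64). No marker of the list was at 0 in any library, and the summed level of the list was 1210 RPM in MH, 598 RPM in CxWT, 1073 RPM in CxH and 798 RPM in MWT. Much of this sum was Ttr and Enpp2, and Enpp2 is also counted among the myelin genes. Enpp2 was at 344 RPM in MH and 223 RPM in CxWT, and its ratio equals the list median of 0.63. Of 16 ependymal cilia genes, which mark the cells lining the ventricles, 9 were called lower and 1 higher, and 4 had 50 reads in CxWT alone and 1 in MH alone. With a coefficient of variation of 0.2 assumed, 0 of the 16 were called lower.

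The X chromosome was set beside the autosomes. Of 434 tested X-linked genes 16 were called higher (3.69%) and 90 lower (20.7%), against 6.41% and 8.29% of 11704 autosomal genes, and the median log2 ratio was -0.28 against -0.10. In CxH against MWT 39.2% of X-linked and 14.1% of autosomal genes were called lower, and 81 X-linked genes were called lower in both pairs. After a correction of the ratios for GC content and transcript length, 19.1% of X-linked and 8.04% of autosomal genes were called lower. Members included Gabrq, Gabre, Htr2c, Irs4 and Pgr15l, which are given above. The Y-linked genes Ddx3y, Uty, Kdm5d and Eif2s3y were counted in all 4 libraries and were not called, at -0.58, -0.24, -0.11 and 0.06. Of the 8 tested genes listed for X inactivation and the Y chromosome, 0 were called in this pair. In CxH against MWT 4 of the 8 were called lower and 0 higher.

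Set beside CxH against MWT, which had 1938 of 12409 genes called higher (15.6%) and 1866 lower (15%), the 783 genes called higher here were called higher there in 664 cases, which is 84.8% of this list and 34.3% of the other. Of the 1089 called lower here, 744 were called lower there, 68.3% of this list and 39.9% of the other. The ratio had the same sign in both pairs for 98.7% of the genes called higher here and 93.9% of those called lower, where 47.8% of all tested genes had a ratio above 0 in CxH against MWT and 52.2% below. The genes called higher here had a median of 1.12 in this pair and 1.44 there, and those called lower -0.99 and -1.05. In both pairs the library with the cortical markers stood in the numerator. By the labels both pairs set Ids-ko over wt, and the areas are exchanged between them. The cortical markers in the shared pattern went against the area labels of MH and CxWT, and Ids against the genotype label of MH. Ids itself was near equal in both pairs (0.06 and -0.20). What the shared pattern comes from was not tested. The GC trend of the ratios was weak in this pair, with a Spearman correlation of 0.163 across the 10707 genes with 100 reads or more in all 4 libraries, and 0.686 in CxH against MWT. Genes are not independent replicates, and this is a description.

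**Figure D4:**
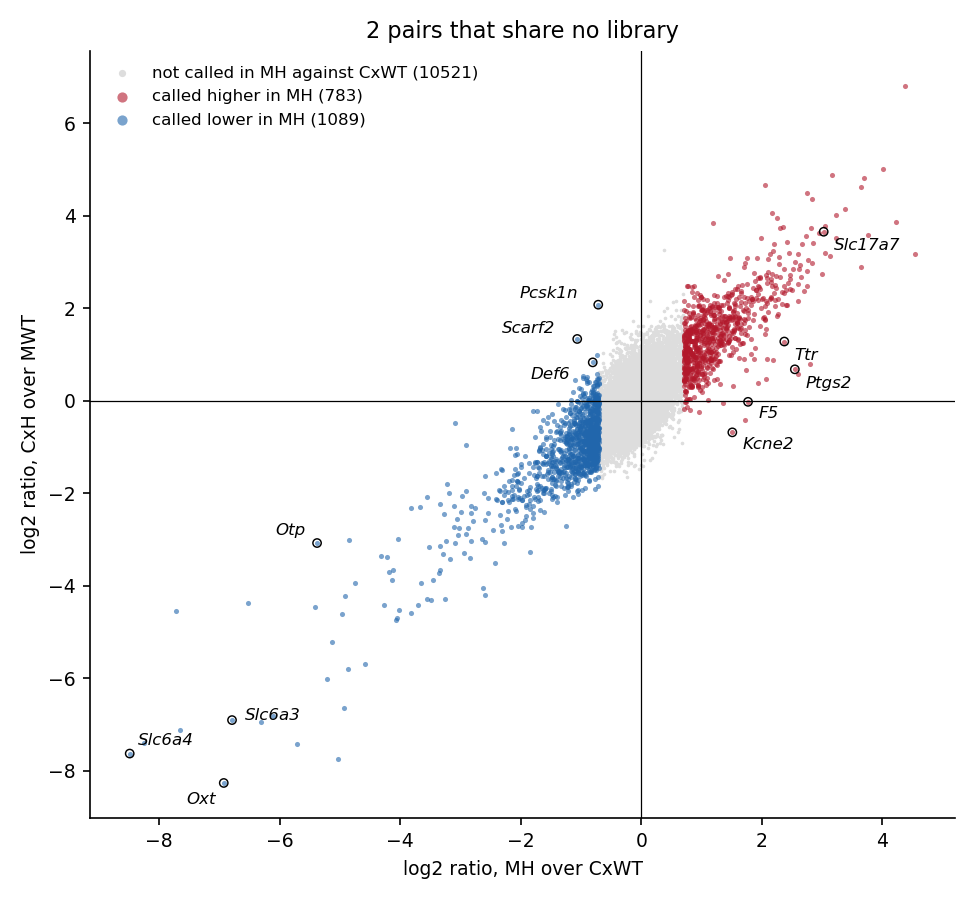
Log2 ratio of CxH over MWT (vertical) against that of MH over CxWT (horizontal) for the 12393 genes tested in the latter. Red and blue points are the 783 and 1089 genes called higher and lower in MH, grey points the rest. Called genes lie mostly in the quadrants of equal sign, 664 and 744 of them with the same call in both pairs, and Pcsk1n, Scarf2 and Def6 are the 3 called in opposite directions with the aligned reads as totals (with TMM factors, only Scarf2 of the 3 is).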

How the data were processed

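Reads of the 4 libraries were aligned by the authors with PASS to the mouse genome (mm9), with at most 2 mismatches, and the deposited values are counts of reads per gene, assigned to a single gene, with genes kept where reads covered above 50% of the gene. The gene annotation and the strand setting of the counting are not given in the sources used here. Symbols came from RefSeq for 12690 of the 12700 genes, and positions, GC content and transcript length from GENCODE vM1.

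Counts were scaled by the aligned reads given for each library. Where a library had 0 reads, 1 read was used in the ratio. A gene was called at a log2 ratio of 0.7 or more in size with a Poisson likelihood ratio test passing 0.05, among genes with 50 or more reads in either library (Python 3.11.15, scipy 1.17.1), and the steps were tested on simulated data. TMM factors and the exact test came from edgeR 4.0.16 and size factors from DESeq2 1.42.0. The text names Ids, the 15 called genes at each end of the ranking by ratio (100 or more reads), genes called in opposite directions in the pairs MH against CxWT and CxH against MWT, and members of 41 gene lists (958 genes, 779 of them in the table), up to about 8 for each list. The pair and the lists were chosen with earlier results of these data known, so that their values are a description. Each condition had 1 library, so there was no replicate error to test against. Some genes that met these rules are not reported here.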

Additional observations from a re-analysis of the deposited data

Results flagged for a closer look

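Pcsk1n, Scarf2 and Def6 were called lower in MH than in CxWT and higher in CxH than in MWT, and no gene was called in the opposite order. Pcsk1n, which encodes the proSAAS precursor, had a log2 ratio of -0.72 in the first pair and 2.08 in the second, at 170.2 RPM in MH, 279.6 RPM in CxWT, 294 RPM in CxH and 69.5 RPM in MWT. Scarf2, a scavenger receptor, had ratios of -1.06 and 1.34, with 59, 111, 111 and 33 reads in MH, CxWT, CxH and MWT. Def6, a guanine nucleotide exchange factor, had ratios of -0.81 and 0.83, with 54, 85, 90 and 38 reads. Pcsk1n and Def6 lay near the threshold of 0.7, and with TMM or DESeq2 factors neither was called in the first pair, where their TMM ratios were -0.61 and -0.699, so that of the 3 genes Scarf2 alone was called in opposite directions. In the exact test with an assumed coefficient of variation of 0.2 none of the 3 was called in the first pair. After the correction for GC content and transcript length Scarf2 and Def6 were no longer called in the second pair, at 0.02 and 0.11, and Pcsk1n kept both calls. With 1 library for each condition the difference between the pairs was not tested.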

How the results depend on the processing

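With 1 library for each condition no replicate could be left out, and no paired analysis was possible because each animal pool gave 1 library for each area. The 783 and 1089 genes called higher and lower became 470 and 539 at a log2 threshold of 1, and 276 and 298 in an exact test that assumed a coefficient of variation of 0.2; they stayed within 1.5 times under the other 9 alternatives, where TMM and DESeq2 factors gave 975 and 822, and 980 and 816. Of the genes called higher, the percent with the same call in CxH against MWT was 80.3 with summed counts as totals, 81.0 with TMM factors and 81.0 with DESeq2 factors. Of those called lower it was 76.5, 73.1 and 73.2 in that order, and 72.0 at the threshold of 1. The 335 genes checked (Ids, the ends of the ranking, the genes called in opposite directions and the called list members) kept their sign where called under every alternative run, and so did every list median past 0.7 in size. For the genes this was nearly fixed in advance. Filters, thresholds and the other tests leave a ratio as it is. Other library totals shift every ratio of the pair by the same amount, which stayed well short of 0.7. The hypothalamic factors had a median of -1.06, which became -0.20 when 50 reads were asked of the average of both libraries. The myelin genes called lower numbered 24, and 2 when a coefficient of variation of 0.2 was assumed.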
